A study of Equus caballus with 33 samples.

Results

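Genes that encode 6 inhibitors of matrix-degrading proteases were followed through 27 days of culture of equine articular cartilage. These are TIMP1, TIMP2 and TIMP3, tissue inhibitors of metalloproteinases, the serine protease inhibitors TFPI2 and SERPINE2, and A2M, which encodes alpha-2-macroglobulin. Each was taken from the probe set annotated with that symbol alone. Where several exist, the one with the highest mean over the 33 arrays was to be used, but all 6 genes had exactly 1, of 25923 probe sets and 16661 single-symbol genes on the array.

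The cartilage was taken after death from a metacarpal bone of 3 horses with no sign of joint disease, and pieces of it (explants) were kept in medium for 48 h. Some were then stimulated with recombinant equine interleukin-1β (IL-1β), at 10 ng/mL, and the others were left unstimulated. Day 0 was measured without IL-1β, and days 3 and 9, day 15, day 21 and day 27 both with and without it, which made 11 groups of 3 arrays each, probably 1 per horse, which no label states in words. A pair of explants was pooled for an array, and every group went through trypsin and collagenase before RNA was taken. Genotype, age and breed were not given in the labels used here.

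Cartilage is a matrix of collagen and aggrecan kept by chondrocytes, and IL-1β is an inflammatory cytokine that induces the enzymes that degrade it. TIMPs block the active site of metalloproteases, TIMP3 also that of the aggrecanases, while serine protease inhibitors act on plasmin, thrombin and the plasminogen activators, which can in turn activate metalloproteases. Alpha-2-macroglobulin traps proteases of several classes in a cage that is cleared by cells through the receptor LRP1. The balance of proteases and inhibitors is a long-standing theme in joint disease, and a transcript level does not measure it.

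On the log2 scale the medians of the arrays were 5.16 to 5.38, and arrays within a group correlated at 0.960 to 0.989. Replicate 3 of the unstimulated day 27 group had the lowest median correlation with all other arrays, 0.950 against 0.961 or more for the remaining ones, and results that turn on it are given without it as well. Chondrocyte genes were present, ACAN at a mean log2 signal of 12.6 in unstimulated explants of days 3 to 27. A mean signal under the median of all probe sets, 5.27, was found for 1 of 9 chondrocyte genes. It was also found for 9 of 10 lymphocyte genes, 7 of 9 endothelial genes, 8 of 11 macrophage and monocyte genes and 4 of 4 red cell genes. The share was smaller in other lists, at 5 of 10 adipocyte and muscle genes and 4 of 7 neutrophil genes. It was 4 of 10 for synovial and fibroblast genes, 3 of 7 for osteoclast genes and 2 of 7 for osteoblast genes. In tissue of this kind, fewer cells of a type and less RNA per cell cannot be told apart.

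With IL-1β, 5 of the 6 inhibitors changed, against 30.8% of all probe sets, and not in 1 direction. Averaged over the 5 days and set against unstimulated explants of the same day, TFPI2, TIMP1 and TIMP3 rose, SERPINE2 and TIMP2 fell, and A2M did not pass the test. These rises are not all rises over day 0. Stimulated TIMP1 had log2 means from 12.29 at day 9 down to 11.95 at day 27, under the 12.47 of day 0. Stimulated TIMP3 was level with day 0 at day 21, at 12.88, and lower at day 27, at 12.655. Stimulated groups were not tested against day 0. Of the 6 genes, 3 were called higher, against 15.6% of all probe sets, and 2 lower, against 15.3%. Their median difference was 0.31 on the log2 scale, and that of all probe sets was -0.04. The 6 genes were chosen with earlier results of these data known, so these shares do not test inhibitors as a kind. Differences are stimulated minus unstimulated on the log2 scale, followed by ± their standard error in limma, with 3 arrays per group. Adjusted p-values are those of limma after Benjamini-Hochberg adjustment over all probe sets, and a gene passed the test, or was called, where its adjusted p was under 0.05. Where a fit with the replicate number as a block changes a call, its adjusted p is given as well.

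**Figure D1:**
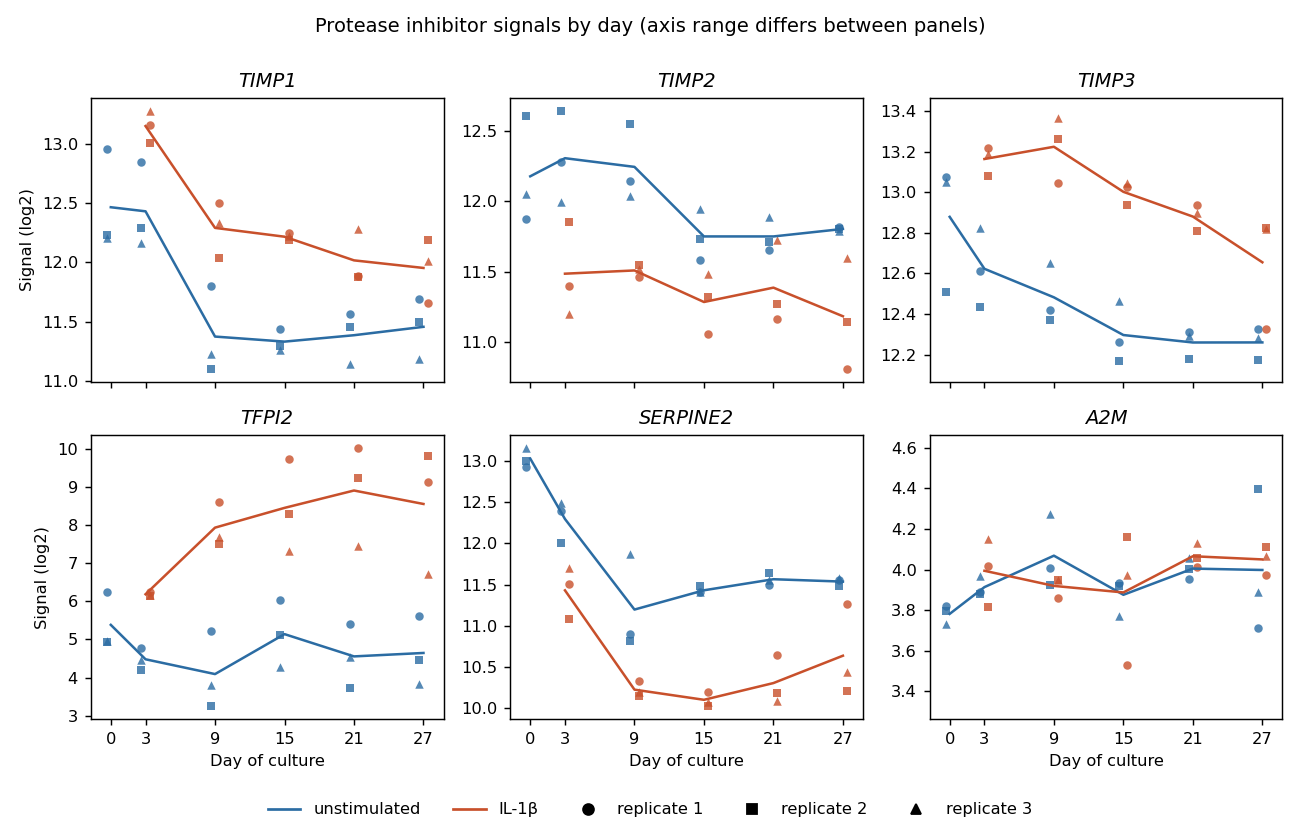
Log2 signal of the 6 inhibitor genes (vertical axes, with a range of their own in each panel) by day of culture (horizontal axes). Points are arrays, with a symbol for each replicate number, lines join the means of 3 arrays, blue is unstimulated and red is IL-1β. The IL-1β points of TFPI2 lie above the unstimulated points at every day with both, those of SERPINE2 lie below, and those of A2M overlap throughout.

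TIMP1 encodes a soluble, secreted inhibitor of most matrix metalloproteases. At day 0 the 3 unstimulated arrays read 12.96, 12.23 and 12.21 on the log2 scale (replicates 1 to 3 in this and later triplets). At day 3 they read 12.85, 12.29 and 12.16, and the stimulated arrays read 13.17, 13.01 and 13.29. All stimulated arrays were above all unstimulated ones at that day. At day 9 unstimulated arrays held 11.80, 11.10 and 11.22 and stimulated arrays 12.50, 12.04 and 12.33. Both kinds were lower than at day 3. Day 15 gave 11.43, 11.29 and 11.26 without IL-1β and 12.25, 12.19 and 12.22 with it. Day 21 gave 11.56, 11.45 and 11.14 without IL-1β and 11.89, 11.88 and 12.28 with it. The groups still did not overlap at days 15 and 21. At day 27 the unstimulated values were 11.69, 11.50 and 11.18 and the stimulated ones 11.66, 12.19 and 12.01, and here the groups overlapped through replicate 1.

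Averaged over days, TIMP1 rose by 0.73 ± 0.10 (adjusted p = 6.51e-07), or 1.66-fold, and 14 of 15 stimulated arrays read higher than their unstimulated match by day and replicate. The 15 pairs, here and for the later genes, come from 3 replicate numbers over 5 days and are not 15 independent comparisons. The means by replicate number were 0.43, 0.73 and 1.03. The difference passed the test at day 9 (0.92 ± 0.21, adjusted p = 0.00571) and day 15 (0.89, adjusted p = 0.00533). It was 0.72 at day 3 (adjusted p = 0.0649, and 0.0311 with the replicate block) and 0.63 at day 21 (adjusted p = 0.0528, and 0.0287 with the block or 0.0467 without the day 27 array that stood apart). Without replicate 3 the day 21 difference was 0.38 (adjusted p = 0.538). At day 27 it was 0.50 (adjusted p = 0.129), and 0.33 without replicate 3 (adjusted p = 0.586). Without replicate 1, whose unstimulated arrays were the highest of the 3 at 6 of 6 times, the day 3, 21 and 27 differences were called (adjusted p = 0.0217, 0.0203 and 0.019). The calls of days 9 and 15 were lost without replicate 2 (adjusted p = 0.163 and 0.114) or replicate 3 (adjusted p = 0.124 and 0.0738).

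TIMP1 also changed with time in culture. The 6 unstimulated times differed (adjusted p = 0.000313, limma F-test), against 4.66% of all probe sets, but not without replicate 2 (adjusted p = 0.0631). The 5 stimulated times differed too (adjusted p = 0.0124), against 0.903%, a call that each omission of a replicate ended (adjusted p from 0.11 to 0.47). Between days 0 and 27 TIMP1 fell by 1.01 ± 0.21 without IL-1β (adjusted p = 0.00451, but 0.0699 and 0.106 without replicates 2 and 3 and 0.148 with only those groups in the fit). From day 3 to day 27 it fell by 0.98 without IL-1β (adjusted p = 0.0207), against 1.01% of all probe sets called, and by 1.20 with it (adjusted p = 0.00215), against 3.28%. The first of these calls was lost when any 1 replicate was left out (adjusted p from 0.0932 to 0.211), without the day 27 array that stood apart (0.139) and with only those groups in the fit (0.361). The second was lost without replicate 2 (adjusted p = 0.0725). Ordered by mean, stimulated explants of day 3 were the highest of the 11 groups, at 13.15 ± 0.14 (SD, n = 3), and did not overlap with the next group. Every other pair of neighbours in that order overlapped, from day 0 at 12.47 ± 0.43 down to unstimulated explants of day 15 at 11.33 ± 0.09. Stimulated explants had a mean of 11.95 ± 0.27 at day 27, unstimulated ones 11.46 ± 0.26.

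TIMP3 encodes the inhibitor that binds to the extracellular matrix and acts on the aggrecanases ADAMTS4 and ADAMTS5 and on ADAM17 as well as on metalloproteases. Unstimulated arrays read 13.08, 12.51 and 13.05 at day 0, and 12.61, 12.43 and 12.82 at day 3. Stimulated arrays of day 3 read 13.22, 13.08 and 13.19. They lay above all unstimulated arrays of day 3 and close together. At day 9 the values were 12.42, 12.37 and 12.65 without IL-1β and 13.05, 13.26 and 13.37 with it. At day 15 they were 12.26, 12.17 and 12.46 without it and 13.02, 12.93 and 13.05 with it, and at day 21 they were 12.31, 12.18 and 12.29 against 12.94, 12.81 and 12.90. The groups were apart at each of these days. Day 27 gave 12.33, 12.17 and 12.28 without IL-1β and 12.32, 12.82 and 12.82 with it, and replicate 1 was level in both.

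On average TIMP3 rose by 0.60 ± 0.07 (adjusted p = 4.56e-08), or 1.52-fold, with a higher stimulated value in 14 of 15 pairs and replicate means of 0.52, 0.72 and 0.56. The rise passed the test at day 3 (0.54 ± 0.15, adjusted p = 0.0423), day 9 (0.74, adjusted p = 0.00148), day 15 (0.71, adjusted p = 0.00172) and day 21 (0.62, adjusted p = 0.00523). At day 27 the difference was 0.39 (adjusted p = 0.0805, and 0.0431 with the replicate block). It was 0.64 there after quantile normalisation once more (adjusted p = 0.00197). Leaving out a replicate gave 0.59 without replicate 1 (adjusted p = 0.0753), 0.27 without replicate 2 (0.453) and 0.32 without replicate 3 (0.394), none of them called. Leaving out any of the replicates ended the calls of day 3 (adjusted p from 0.167 to 0.371) and day 21 (from 0.0623 to 0.0816), and leaving out replicate 2 that of day 9 (0.0755).

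Without IL-1β, TIMP3 fell by 0.62 ± 0.15 between days 0 and 27 (adjusted p = 0.0133). Its times differed overall (adjusted p = 0.0361), though no longer when a replicate was omitted (adjusted p from 0.176 to 0.427) or only the unstimulated groups were fitted (adjusted p = 0.196). The fall from day 0 was lost in those settings too (adjusted p from 0.0517 to 0.255). Day 27 minus day 3 was -0.51 ± 0.15 in stimulated explants (adjusted p = 0.0601, and 0.0275 with the replicate block). It was -0.32 without replicate 1 (adjusted p = 0.65) and -0.22 after quantile normalisation once more (adjusted p = 0.506). Group means ran from 13.22 in stimulated explants of day 9 to 12.26 in unstimulated explants of day 21. In that order 1 pair of neighbours did not overlap, stimulated explants of day 3 and of day 15.

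TIMP2 encodes an inhibitor that also takes part in the activation of pro-MMP2 by the membrane protease MMP14, and it moved the other way. At day 0 unstimulated arrays held 11.88, 12.61 and 12.05. Day 3 gave 12.28, 12.65 and 11.999 without IL-1β and 11.40, 11.86 and 11.20 with it. Day 9 gave 12.15, 12.55 and 12.04 without it and 11.46, 11.54 and 11.52 with it. At both days every stimulated array lay below every unstimulated one. Day 15 gave 11.58, 11.73 and 11.94 against 11.05, 11.32 and 11.48, again without overlap. Day 21 gave 11.65, 11.71 and 11.89 against 11.16, 11.27 and 11.72, with an overlap through replicate 3. At day 27 the unstimulated values were tight, at 11.82, 11.81 and 11.79, and all above the stimulated values of 10.81, 11.14 and 11.60.

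Averaged over days, TIMP2 fell by 0.60 ± 0.10 (adjusted p = 1.3e-05), a 1.52-fold change, and was lower in the stimulated array in 15 of 15 pairs. Replicate means were -0.72, -0.66 and -0.43. By day, the fall passed the test at day 3 (-0.82 ± 0.21, adjusted p = 0.0272) and day 9 (-0.74, adjusted p = 0.0312). The differences of -0.47 at day 15 (adjusted p = 0.176) and -0.37 at day 21 (adjusted p = 0.333) did not pass. That of day 27 was -0.62 (adjusted p = 0.0504, and 0.0264 with the replicate block or 0.0349 without replicate 3). The calls of days 3 and 9 were lost when any 1 replicate was left out (adjusted p from 0.0549 to 0.354) and after quantile normalisation once more (adjusted p = 0.0585 and 0.0598). Centring arrays on their medians ended that of day 9 (0.0539). Ordered by mean, all 6 unstimulated groups lay above all 5 stimulated groups, from 12.31 ± 0.33 in unstimulated explants of day 3 to 11.18 ± 0.40 in stimulated explants of day 27. Neighbours did not overlap at the step below day 0 and at the step between unstimulated day 21 and stimulated day 9. Neither the unstimulated times (adjusted p = 0.22) nor the stimulated ones (adjusted p = 0.986) passed the F-test.

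TFPI2 encodes a matrix-bound Kunitz-type inhibitor of plasmin and trypsin, and its difference was the largest of the 6. Unstimulated arrays read 6.25, 4.94 and 4.96 at day 0, then 4.77, 4.21 and 4.46 at day 3 and 5.23, 3.24 and 3.80 at day 9. Stimulated arrays read 6.25, 6.14 and 6.17 at day 3 and 8.61, 7.52 and 7.69 at day 9. The stimulated arrays of day 3 were level with the highest day 0 array and above all others without IL-1β up to day 9. At day 15 the values were 6.04, 5.11 and 4.27 without IL-1β and 9.74, 8.30 and 7.32 with it. At day 21 they were 5.40, 3.72 and 4.55 against 10.03, 9.25 and 7.46, and at day 27 5.63, 4.47 and 3.84 against 9.13, 9.82 and 6.73. The groups were apart at all 5 days, and stimulated replicate 3 was the lowest of its group at the last 3 of them.

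All 15 stimulated TFPI2 arrays lay above all 15 unstimulated arrays of days 3 to 27, with 6.14 as the lowest of the former and 6.04 as the highest of the latter. Such a separation was seen in 2.99% of all probe sets and in none of the other 5 genes. With day 0 added, whose highest array read 6.25, none of the 6 separated, against 2.11% of all probe sets. TFPI2 rose by 3.43 ± 0.32 on average (adjusted p = 2.04e-09), or 10.8-fold, with replicate means of 3.34, 4.06 and 2.89. The unstimulated arrays it is set against had a mean of 4.58, under the median signal of all probe sets, so that the fold can be understated. By day it was called at day 9 (3.85 ± 0.72, adjusted p = 0.000674), day 15 (3.32, adjusted p = 0.0022), day 21 (4.36, adjusted p = 0.000104) and day 27 (3.91, adjusted p = 0.000315). Day 3 had the smallest difference, 1.71, which missed the threshold (adjusted p = 0.296) and passed it with the replicate block (adjusted p = 0.0447) or with only the groups of day 3 in the fit (adjusted p = 0.00596). Calls of days 9, 15 and 27 were lost without replicate 2 (adjusted p = 0.0787, 0.0693 and 0.0712).

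The spread of TFPI2 within groups, 0.96 on the log2 scale, was larger than that of 99.3% of probe sets, and those of the other 5 genes lay between 0.17 and 0.29. Replicate 1 was highest in 6 of 6 unstimulated and 4 of 5 stimulated groups. The stimulated means were 6.19 ± 0.05 on day 3, 7.94 ± 0.59 on day 9, 8.46 ± 1.22 on day 15, 8.91 ± 1.32 on day 21 and 8.56 ± 1.62 on day 27, with SDs over 3 arrays. Day 27 minus day 3 was 2.37 ± 0.72 in these explants (adjusted p = 0.0697, and 0.0055 with the replicate block). Without replicate 3 it was 3.28 and was called (adjusted p = 0.0298). The F-test over their times was not passed (adjusted p = 0.216), but was with the block (adjusted p = 0.0122). Whether the IL-1β difference itself varied between days was not called in either fit, and day 27 minus day 3 of that difference was 2.21 ± 1.03 (adjusted p = 0.394). Unstimulated means lay between 4.09 and 5.38, with all neighbours in that order overlapping, and the F-test over their times gave an adjusted p of 0.806.

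SERPINE2 encodes protease nexin-1, a serpin that inhibits thrombin, urokinase and plasmin. Its highest values were those of day 0, at 12.92, 13.00 and 13.16. At day 3 unstimulated arrays read 12.39, 12.003 and 12.49 and stimulated arrays 11.51, 11.08 and 11.70. Both were below day 0, and stimulated arrays were below unstimulated ones. Day 9 gave 10.90, 10.81 and 11.87 without IL-1β and 10.33, 10.15 and 10.19 with it. From then on, unstimulated values held between 11.40 and 11.64, with 11.41, 11.48 and 11.40 at day 15, 11.49, 11.64 and 11.56 at day 21 and 11.55, 11.48 and 11.57 at day 27. Stimulated arrays read 10.20, 10.02 and 10.08 at day 15, 10.64, 10.18 and 10.09 at day 21 and 11.26, 10.21 and 10.43 at day 27. The groups did not overlap at any of the 5 days, and stimulated replicate 1 stood nearest to the unstimulated arrays at day 27.

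SERPINE2 fell by 1.06 ± 0.10 on average (adjusted p = 4.11e-09), a 2.09-fold change, and was lower in 15 of 15 pairs, with replicate means of -0.76, -1.16 and -1.28. All 5 days passed the test. The difference was -0.87 ± 0.23 on day 3 (adjusted p = 0.0348) and -0.97 on day 9 (0.00747). It was -1.33 on day 15 (adjusted p = 0.000228), -1.26 on day 21 (0.000367) and -0.90 on day 27 (0.00818). Leaving out any of the replicates ended the call of day 3 (adjusted p from 0.138 to 0.318), as did quantile normalisation once more (0.0527). Without replicate 3 the day 9 difference was -0.62 (adjusted p = 0.261), which moved it by over 1.5 times, and the day 27 call was lost (adjusted p = 0.0868). Without replicate 2 both calls were lost (adjusted p = 0.0584 and 0.177).

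SERPINE2 also changed in culture without IL-1β. Its unstimulated times differed (adjusted p = 5.01e-05), and the fall between days 0 and 27 was 1.49 ± 0.23, or 2.81-fold (adjusted p = 0.000216). That fall was called in 12 of 12 alternative fits. Stimulated times differed as well (adjusted p = 0.0107), but in no fit that omitted a replicate (adjusted p from 0.184 to 0.353). Day 27 minus day 3 was -0.79 in stimulated explants (adjusted p = 0.0597, and 0.0348 with the replicate block). Days 0 and 3 without IL-1β, at 13.03 ± 0.12 and 12.30 ± 0.26, headed the 11 groups and overlapped with no neighbour. Stimulated explants of day 3, at 11.43 ± 0.32, lay among the unstimulated groups of days 9 to 27, and the other 4 stimulated groups were the lowest.

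A2M, like TFPI2 without IL-1β, had low signals. Its 33 arrays lay between 3.53 and 4.40, all under the median of all probe sets, 5.27. Group means ran from 3.78 ± 0.04 at day 0 to 4.07 ± 0.18 in unstimulated explants of day 9 (SD, n = 3), and every group overlapped with its neighbours in the order. The average difference was 0.01 ± 0.07 (adjusted p = 0.925), with a 95% interval from -0.13 to 0.15 and a higher stimulated value in 10 of 15 pairs. By day, the differences lay between -0.15 and 0.08, and all 5 days showed overlapping groups. The same limit on folds at low signals applies to it.

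**Figure D2:**
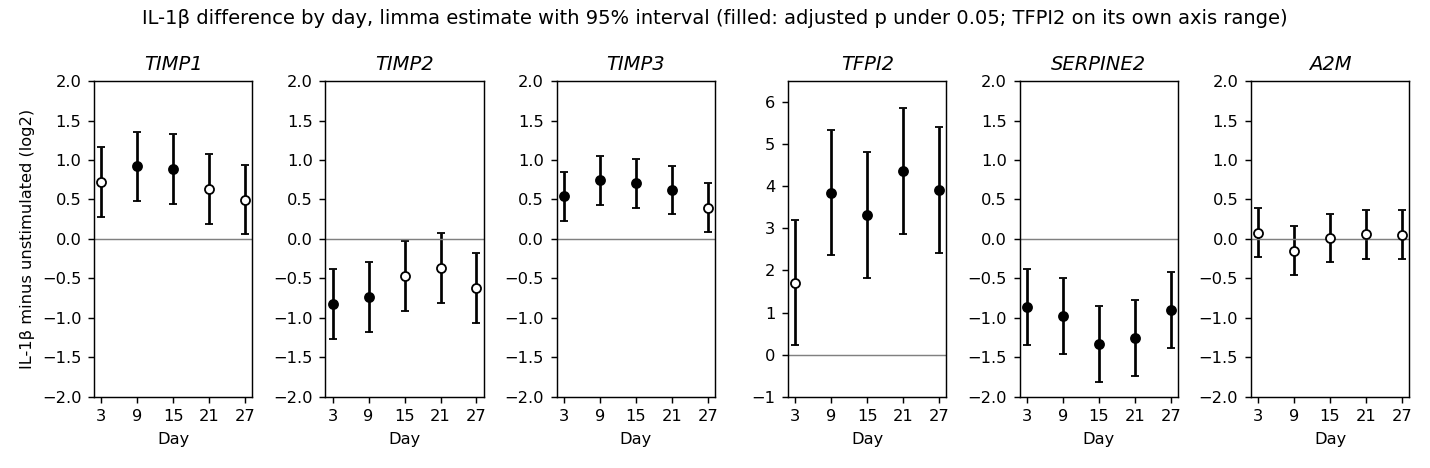
Stimulated minus unstimulated difference on the log2 scale (vertical axes) at each day (horizontal axes), one panel per gene, with the limma 95% interval as bars. Filled points passed an adjusted p of 0.05. The points of TIMP1, TIMP3 and TFPI2 lie above 0 and those of TIMP2 and SERPINE2 below. The intervals of A2M span 0 at each day, and that of TIMP2 does at day 21.

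Set by day, 3 of the 6 genes were called on day 3, 5 on day 9, 4 on day 15, 3 on day 21 and 2 on day 27. All probe sets were called in 3.32%, 7.54%, 12.7%, 12.1% and 14.8% of cases at the same days. With the replicate block the genes called numbered 5, 5, 4, 4 and 4. With only the groups of a day in the fit, the 3 calls of day 3 were lost (adjusted p from 0.122 to 0.186), as were those of TIMP1, TIMP2 and SERPINE2 at day 9 (0.0642 to 0.112) and of SERPINE2 at day 27 (0.0972). A variation of the difference between days was called by limma's F-test for 0 of 6 genes, with 0 at an unadjusted p under 0.05, against 0.409% of all probe sets called. For day 27 minus day 3 of the difference, limma called 0 of 6, with 1 at an unadjusted p under 0.05, TFPI2, against 1.1% of all probe sets. Groups of stimulated and unstimulated arrays did not overlap at 5 of 5 days for TFPI2 and SERPINE2 and at 4 of 5 days for each TIMP. Over all probe sets this was so in 17% at day 3 and in 22.2% to 28.7% at the later days.

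Changes from day 0 were tested in unstimulated explants only. Day 3 minus day 0 was called by limma for 0 of the 6 genes, with 1 at an unadjusted p under 0.05, SERPINE2, at -0.73 ± 0.23 (adjusted p = 0.243). Over all probe sets 0.401% were called. Day 27 minus day 0 was called lower for 3 of 6 (TIMP1, TIMP3 and SERPINE2), against 3.41% of all probe sets, and for 3 in either direction, against 5.44%. The median of the 6 was -0.68 and that of all probe sets 0.05. Day 9 minus day 3 was set as a contrast after values were seen, and limma called 0 of 6 genes in it, with 2 at an unadjusted p under 0.05 without IL-1β and 3 with it. It was -1.06 ± 0.21 for TIMP1 (adjusted p = 0.0821, and 0.0295 with the replicate block) and -1.10 ± 0.23 for SERPINE2 (adjusted p = 0.109, and 0.0372 with the block) without IL-1β. With IL-1β it was -0.86 for TIMP1 (adjusted p = 0.327) and -1.20 for SERPINE2 (adjusted p = 0.0719, and 0.0308 with the block). Over all probe sets 0.027% were called for that step without IL-1β and 0.0154% with it.

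**Figure D3:**
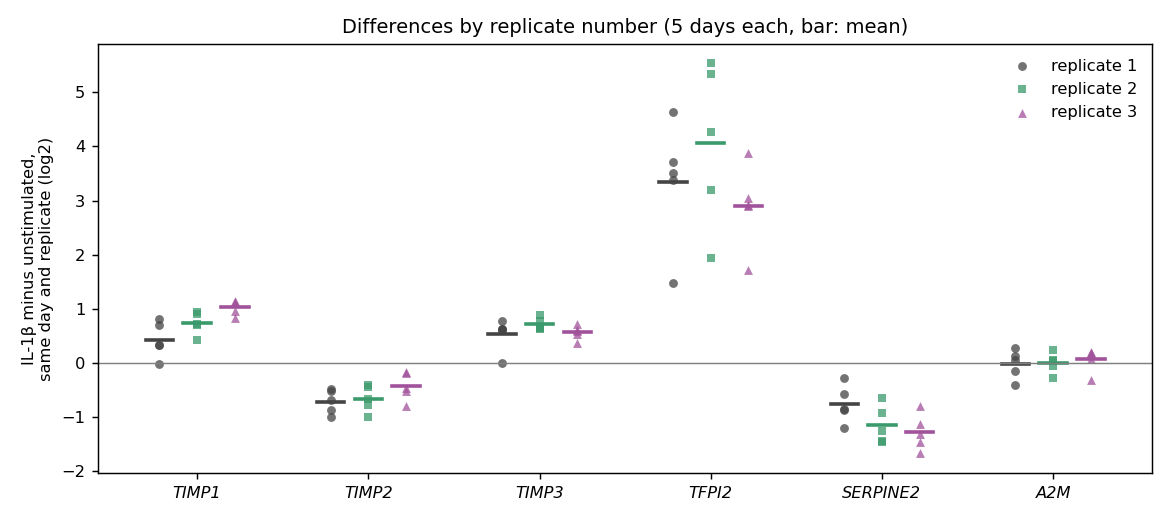
Stimulated minus unstimulated difference on the log2 scale (vertical axis) for each gene (horizontal axis) in pairs of the same day and replicate number, with 5 points per number and a bar at their mean. The 3 numbers share the direction for TIMP1, TIMP2, TIMP3, TFPI2 and SERPINE2, and TFPI2 has the widest spread, from 1.48 to 5.54.

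The inhibitors varied together only in part. Over the 33 arrays, Pearson's r was 0.75 between TIMP1 and TIMP3 and -0.80 between TIMP2 and TFPI2. Over deviations from the group means, which leave out the differences between groups, these were 0.21 and -0.63. TIMP2 and SERPINE2 had r = 0.57 over arrays and -0.62 over deviations, a change of sign. Arrays share replicate number, day and normalisation, so these values are a description.

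Genes most like each inhibitor over the 33 arrays were chosen by Pearson's r among all single-symbol genes. SERPINE2 was most like NT5E, the ecto-5'-nucleotidase gene (r = 0.94), the caveolin gene CAV1 (0.92) and the receptor phosphatase gene PTPRM (0.89). TFPI2 was most like ATP6V0D1, a subunit of the vacuolar proton pump (0.92), AUP1 (0.91) and the ferritin light chain gene FTL (0.91). TIMP3 was closest to the receptor gene GPR84 (0.90), followed by LOC100051901 (0.88) and IER3IP1 (0.88). The genes closest to TIMP2 were TGFBR2, a TGF-beta receptor (0.87), the collagen-binding integrin gene ITGA10 (0.86) and the laminin gene LAMB2 (0.85). For TIMP1 they were FNDC3B (0.85), RNF181 (0.84) and the follistatin-like gene FSTL1 (0.84). A2M had no gene above 0.59, that of CABP4. Over deviations from group means, LAMB2 (0.86) and TGFBR2 (0.78) were again among the 3 closest to TIMP2, with SPARC (0.83), and for the other 5 genes all 3 closest were different ones, such as COPE for TIMP1 (0.83), PFN2 for TIMP3 (0.84), WBP4 for TFPI2 (0.87), GREM1 for SERPINE2 (0.78) and MLX for A2M (0.72).

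**Figure D4:**
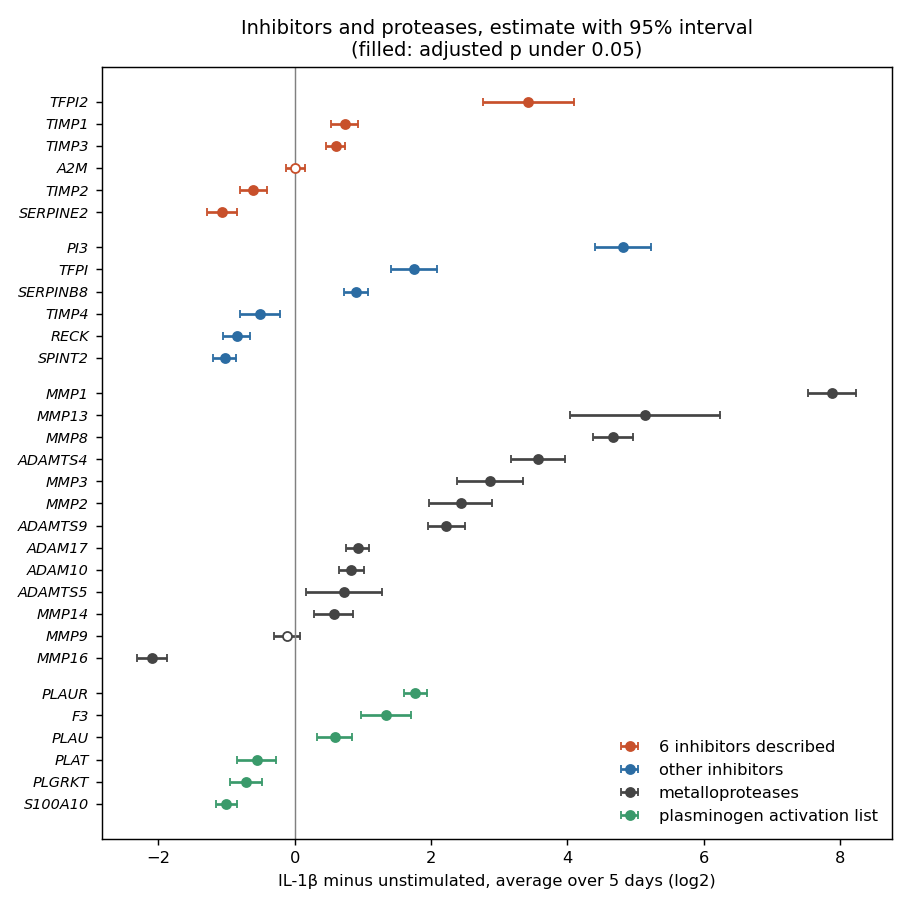
Average stimulated minus unstimulated difference on the log2 scale (horizontal axis) with the limma 95% interval, by gene (vertical axis). Drawn are the 6 inhibitors and a selection, not the whole lists, of other inhibitors, metalloproteases and genes of plasminogen activation. Of the other inhibitors measured, 4 rose and 9 fell, and most of these falls are not drawn. The falls of MMP17, ADAM15 and ADAM19 are not drawn either. Among the genes drawn, MMP1 has the largest value, 7.88, and TFPI2, at 3.43, is close to ADAMTS4, at 3.56.

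Other inhibitors of matrix proteases, a list of 33 genes of which 25 were measured, held changes of both directions. Averaged over days, 4 of them rose, a share near the 15.6% of all probe sets, and 9 fell, against 15.3%, while 12 did not pass the test. Their median was -0.21 against -0.04 for all probe sets. PI3, which encodes the elastase inhibitor elafin, rose by 4.82 ± 0.20 (adjusted p = 1.47e-16). TFPI, the Kunitz inhibitor of the tissue factor pathway and a relative of TFPI2, rose by 1.76 ± 0.16 (adjusted p = 1.65e-09). SERPINB8 rose by 0.90, and the 4th that rose was the cystatin gene CSTA, named after its values were seen. The falls included SPINT2, a membrane-bound Kunitz inhibitor, by 1.03 ± 0.08, RECK, a membrane-anchored inhibitor of metalloproteases, by 0.85 ± 0.10, and the remaining TIMP gene, TIMP4, by 0.51 ± 0.14 (adjusted p = 0.00649). Of the 4 TIMP genes, 2 thus rose and 2 fell.

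Metalloproteases, the targets of the TIMPs, had more rises than falls. Of 20 measured matrix metalloproteases, 7 rose and 2 fell (MMP16 and MMP17), with 11 not passing the test and a median of 0.03, against 15.6% higher, 15.3% lower and a median of -0.04 over all probe sets. TIMP2's partners MMP2 and MMP14 rose by 2.43 ± 0.23 and 0.57 ± 0.14, and the gelatinase gene MMP9 differed by -0.12 (adjusted p = 0.368). Among 25 ADAM and ADAMTS genes 10 rose and 2 fell (ADAM15 and ADAM19), with 13 not passing and a median of 0.09. ADAMTS4, ADAM17 and ADAM10, which TIMP3 can inhibit, rose by 3.56 ± 0.19, 0.92 ± 0.09 and 0.83 ± 0.09. ADAMTS5, another of its targets, rose by 0.72 ± 0.27 on average (adjusted p = 0.0451), with -0.43 at day 3 (adjusted p = 0.917) and 2.18 at day 27 (adjusted p = 0.0142). The rise of TIMP3 was 0.60 ± 0.07 beside these.

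On the side of plasmin, 6 of 23 measured genes rose and 8 fell, against 15.6% and 15.3% of all probe sets, and 9 did not pass. The median of -0.06 was close to that of all probe sets, -0.04. PLAUR, the urokinase receptor gene, rose by 1.77 ± 0.08 (adjusted p = 2.07e-15), from a mean log2 signal of 10.6 to 12.4. The urokinase gene PLAU rose by 0.59 ± 0.13 and F3, which encodes tissue factor, by 1.34 ± 0.18. In contrast, the tissue plasminogen activator gene PLAT fell by 0.56 ± 0.14, the plasminogen receptor gene PLGRKT by 0.71 ± 0.11 and S100A10, whose product binds plasminogen at the cell surface, by 1.00 ± 0.07. TFPI2 and SERPINE2, both inhibitors of plasmin, moved in opposite directions.

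Markers of other cell types were set beside these results, and their part in the results was not tested. Macrophage and monocyte genes rose in 2 of 11 cases (FCER1G and CD68) and fell in 1 (CD74), shares near or under the 15.6% and 15.3% of all probe sets, and the mean level of the list was 4.41 to 4.88 over unstimulated arrays and 4.61 to 5.08 over stimulated ones. Neutrophil genes rose in 3 of 7 cases, with S100A12 at 7.26, S100A9 at 3.13 and CSF3R at 0.20, and a list level of 4.46 to 5.70 against 5.84 to 7.04. The median difference of that list was -0.02, and S100A8 differed by -0.67 (adjusted p = 0.135). The pan-leukocyte gene PTPRC was near the lower end of the scale in both, at 3.55 without and 3.44 with IL-1β, and differed by -0.11 (adjusted p = 0.301). Endothelial genes were higher in 0 of 9 cases in limma (0 at an unadjusted p under 0.05) and lower in 3, at list levels of 4.40 to 4.88 and 4.22 to 4.67. Chondrocyte markers fell in 5 of 9 cases, with list levels of 8.25 to 8.84 and 6.43 to 7.93. Among immediate-early genes, some of which respond to digestion of tissue, 11 of 19 fell and 4 rose. Osteoclast markers rose in 2 of 7 cases, CTSK by 1.48 ± 0.11 and ATP6V0D2 by 1.91 ± 0.23, and fell in 1 (TNFRSF11A), with list levels of 5.09 to 5.85 and 5.38 to 6.13. Osteoblast markers fell in 3 of 7 cases, ALPL by 3.40 ± 0.25 among them, and rose in 1 (RUNX2), at 4.89 to 6.43 and 5.05 to 5.83. Synovial and fibroblast markers rose in 3 of 10 cases, PDGFRA by 1.30 ± 0.23 among them, and fell in 2 (PDGFRB and THY1), at 6.05 to 6.62 and 5.98 to 6.73. Adipocyte and muscle markers rose in 2 of 10 cases, MYH11 by 1.92 ± 0.19 and TNNT1 by 0.71 ± 0.14, at 5.14 to 5.78 and 5.37 to 5.99. Of 4 red cell genes limma called 0, with 0 at an unadjusted p under 0.05.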

How the data were processed

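Equine cartilage RNA was measured on 33 arrays, deposited as log2 values of 25923 probe sets. The submitters' processing notes name RMA, limma and Affymetrix Expression Console without versions. RMA corrects background, normalises by quantiles and summarises probes, and it compresses changes near either end of the scale. The log base was inferred from the values, which run from 1.50 to 13.9. They were not normalised again, and 0 pairs of arrays were identical. Gene names are those of the array platform's annotation, which may be outdated.

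Groups came from the sample titles. Contrasts were fitted in limma 3.58.1 under R 4.3.3 (lmFit and eBayes, 1 mean per group, 22 residual degrees of freedom), tested on simulated data, two-sided, with 0.05 as the threshold after adjustment over all probe sets. Arrays of 1 replicate number count as independent, so the error of the average over days does not measure the spread between numbers. With 3 arrays a group, the smallest exact permutation p is 0.1. That 1 number is 1 horse is inferred from a shared prefix in the sample descriptions. The pairing check gave a median correlation of deviations of 0.16 over 165 pairs of the same number and -0.08 over 330 pairs of different numbers, with 0.08 as the lowest between stimulated and unstimulated explants of a day and number. Nothing else says how separate the samples were, and p-values may in part measure technical spread.

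The 6 genes and all lists were chosen with earlier results of these data known. Other genes are named by a rule, 18 fixed genes, up to 4 per list with the smallest p of the average difference and the 3 most alike per inhibitor. No protein or promoter sequence was used here. The alternatives, given in the closing section, were a block for the replicate number, fixed (which leaves 20 degrees of freedom) or random, dim probe sets left out, quantile normalisation once more, centring on medians, eBayes with trend and robust, array weights, a replicate or the day 27 array left out, and only the contrast's groups. The contrasts of day 9 minus day 3 were added after values were seen.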

Additional observations from a re-analysis of the deposited data

How the results depend on the processing

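The 5 average differences that passed the test kept their direction and their call in 12 of 12 alternatives. Leaving out a replicate gave 0.58 to 0.88 for TIMP1, -0.69 to -0.55 for TIMP2, 0.54 to 0.64 for TIMP3, 3.12 to 3.70 for TFPI2 and -1.22 to -0.96 for SERPINE2. A2M was not called in any of 11, and with dim probe sets left out it has no value. No result reversed. In the F-test over unstimulated times, leaving out a replicate gave F of 7.83 to 13.8 for TIMP1 and 2.57 to 5.38 for TIMP3, with 1 to 2 genes called in place of 3. Fitting only the groups of the contrast gave 4.50 for TIMP3. Over stimulated times the ranges were 6.03 to 11.5 for TIMP1 and 6.14 to 8.38 for SERPINE2 (10.2 without the day 27 array), with 0 genes called when any 1 replicate was left out (2 with all arrays), where 2 arrays per group remain. Fitting only the stimulated groups gave 9.98 for SERPINE2 and 1 gene called. TFPI2 was called there with the replicate block (F = 9.58) and with array weights (F = 6.46). The replicate block changed no other call than those given in the text.

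Over the 12 alternatives, counts of genes called at single days ran from 0 to 5 at day 3 (3 as reported) and at day 9 (5), from 2 to 4 at days 15 (4) and 21 (3), and from 0 to 4 at day 27 (2). Those of day 27 minus day 3 with IL-1β ran from 0 to 4 (1). The count of all probe sets called on average was 7991, and 5239 without replicate 2. A second probe set of the same symbol was not run, since each gene has 1. The number of arrays limits the precision, and no signal over background was used here.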

Other observations

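Receptors that clear complexes of proteases and their inhibitors were not described above. Of 9 listed genes, which include the chaperone gene LRPAP1, 7 were measured. Averaged over days 2 rose, against 15.6% of all probe sets, and 2 fell, against 15.3%, while 3 did not pass the limma test. Their median was -0.10 against -0.04 for all probe sets. LRP1, the receptor that takes up alpha-2-macroglobulin and TIMP3, differed by -0.15 ± 0.11 (adjusted p = 0.317) at a mean log2 signal of 10.1 with IL-1β and 10.2 without it. Related receptor genes rose, VLDLR by 2.11 ± 0.36 (adjusted p = 2.99e-05) and LRP8 by 1.49 ± 0.11 (adjusted p = 2.76e-11). In VLDLR, stimulated explants had a mean signal of 7.06, close to day 0 at 7.27, while unstimulated explants of days 3 to 27 had 4.95. The sorting receptor gene SORT1 differed by -1.28 ± 0.17 at day 3 (adjusted p = 3.15e-05) and by 0.16 ± 0.17 at day 27 (adjusted p = 0.621), and the change in that difference between the days was called. LRPAP1, which encodes a chaperone of these receptors, fell by 0.26 ± 0.07 on average (adjusted p = 0.00437).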
